A study of Homo sapiens with 6 samples.

Results

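The genes described here encode the proteins of the large, 60S, subunit of the cytosolic ribosome. They were taken by symbol from the deposited expression table, as every row whose name is RPL followed by a number, or RPLP and a number, with an optional letter. This gave 51 of 16070 genes: 46 main copies and 5 paralogs, which are second genes closely related to a main copy (RPL3L, RPL7L1, RPL22L1, RPL26L1 and RPL39L). The rule reads names and no measured value. RNA came from the established human cell line NCI-H1299, grown from a non-small cell lung cancer, after 48 h either with 25 µM of 6p, a derivative of the antibiotic platensimycin, or with the vehicle, 0.1% DMSO. There were 3 libraries of each group, called control and 6p here; a label field names the controls untreated, while the protocol gives them vehicle. The samples are given as independent without saying whether they were separate cultures, so p-values measure only the spread between these samples. The design sets 6p against vehicle.

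The 60S subunit holds the peptidyl transferase centre, the tunnel through which the new protein leaves, and a flexible stalk that recruits and activates the GTP-hydrolysing elongation factors. Its proteins are made in the cytoplasm, imported into the nucleolus and assembled on ribosomal RNA together with many assembly factors. Most messenger RNAs of ribosomal proteins begin with a C followed by an unbroken run of pyrimidines, the 5′ terminal oligopyrimidine (TOP) motif. Through this motif and the RNA-binding protein LARP1, their translation and stability are tied to mTOR, the kinase that senses amino acids and growth factors. Free RPL5 and RPL11, bound to 5S ribosomal RNA, are known to inhibit the ubiquitin ligase MDM2.

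The TOP motif sits at the very start of the transcript, so the bases around annotated starts are shown first, to let the members with and without it be read side by side. RefSeq promoter sequences (build GRCh38.p14) were at hand for 41 of the 51 genes, 38 of them main copies. Those without a sequence included RPL23, RPL23A, RPL30, RPL37, RPL39L, RPL3L, RPL5, RPL7 and RPL8. Each line gives the 15 bases before and the 15 bases from the start, 5′ to 3′ on the gene's strand. Capitals mark the run of C and T that begins with a C at the start, where it spans 5 bases or more. The lines are a selection: some stalk genes, some genes with larger and smaller changes, RPL7L1, and the paralog pairs of RPL22 and RPL26.
RPLP0 (chr12:120201097-120201126, minus strand): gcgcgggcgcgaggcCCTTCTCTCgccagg
RPLP1 (chr15:69452803-69452832, plus strand): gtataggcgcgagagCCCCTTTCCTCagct
RPL12 (chr9:127451392-127451421, minus strand): ccgcgcgatttccggCCTCTCggctttcgg
RPL37A (chr2:216498829-216498858, plus strand): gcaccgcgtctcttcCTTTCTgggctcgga
RPL39 (chrX:119791616-119791645, minus strand): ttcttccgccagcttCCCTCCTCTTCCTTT
RPL35 (chr9:124861943-124861972, minus strand): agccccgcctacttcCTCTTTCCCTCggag
RPL22 (chr1:6199581-6199610, minus strand): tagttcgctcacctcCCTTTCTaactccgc
RPL22L1 (chr3:170870181-170870210, minus strand): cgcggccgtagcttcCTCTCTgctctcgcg
RPL26 (chr17:8383179-8383208, minus strand): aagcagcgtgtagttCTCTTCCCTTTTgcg
RPL26L1 (chr5:172958714-172958743, plus strand): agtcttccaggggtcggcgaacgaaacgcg
RPL7L1 (chr6:42879601-42879630, plus strand): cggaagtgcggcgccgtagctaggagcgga
RPL9 (chr4:39458908-39458937, minus strand): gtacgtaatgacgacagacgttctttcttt
RPL17 (chr18:49492451-49492480, minus strand): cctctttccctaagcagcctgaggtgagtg
RPL11 (chr1:23691764-23691793, plus strand): cgcctcctggcccataaggccctcggccgg
RPL27 (chr17:42998404-42998433, plus strand): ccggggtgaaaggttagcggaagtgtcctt
A run of this kind stood at the annotated start of 25 of the 38 main copies (65.8%), against 5.53% of 9732 tested genes and 4.07% of all 35116 promoters in the table. The search read the transcribed strand at the annotated base only; a gene such as RPL9, with its pyrimidines a few bases downstream, did not count, and nothing about the true start follows from a missing match. Of the paralogs with a sequence, RPL22L1 had a run as RPL22 does, and RPL26L1 had none where RPL26 has one of 12 bases. CCGGAAG, the core bound by ETS factors such as GABP, was found on either strand within the 300 bases of 12 main copies (31.6%), 20.4% of tested genes and 10.3% of all promoters. Its complement can overlap the end of a pyrimidine run. TATAAA was found on either strand in 3 main copies (7.89%), against 5.12% of tested genes and 11.5% of all promoters.

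Values are FPKM, fragments scaled by gene length and by the library's total, and so compare levels between genes per length. Library totals recovered from the values ran from 16775655 to 19957335 fragments, and the 51 genes held 3.49% to 7.10% of the fragments of a library. Control replicate 3 and 6p replicate 1 stood apart from their groups, with higher values for short genes and lower values for long ones. Control replicate 3 exceeded both other controls in 46 of 46 main copies, with a median ratio of 1.29 to their mean. 6p replicate 1 exceeded both other 6p libraries in 45 of 46, with a median ratio of 1.26. Results are therefore also given without these libraries and with each library's trend on gene length removed. Leaving both out takes away the library that differed most within each group. Calls over all tested genes then rose to 30.3% higher and 35.6% lower, from 21.3% and 25.1%. Calls kept or gained in that fit are therefore weaker evidence than calls from all libraries. The epithelial keratins KRT8 and KRT18 were at 302 ± 25.3 (mean ± SD, n = 3, as throughout) and 596 ± 69.7 FPKM in control, and the mesenchymal filament VIM at 2827 ± 139. PTPRC, PECAM1, COL1A1 and ALB, markers of leukocytes, endothelium, fibroblasts and hepatocytes, stood below 0.5 FPKM on average in both groups; CD3E was not used here.

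Messenger RNAs of 60S proteins took a larger part of the sequenced RNA in 6p-treated cells, and nearly every main copy was higher. The sum over the 51 genes was 8.25%, 8.56% and 9.71% of all FPKM in control replicates 1 to 3 and 13.3%, 11.7% and 11.8% in 6p replicates 1 to 3. The groups did not overlap: the lowest 6p library stood above control replicate 3, the highest control. Of 46 main copies, 45 passed the filter of a mean of at least 0.5 FPKM. Of these 45, 44 were higher and 0 lower in 6p at adjusted p under 0.05 (limma on log2(FPKM + 1), adjusted over 11745 genes); the other was RPL17. At an unadjusted p under 0.05, too, 44 were higher and 0 lower. Over all tested genes 21.3% were higher and 25.1% lower. The median log2 fold change of the 45 was 0.63, with a range of 0.12 to 1.09, beside a median of -0.04 over all tested genes. In 44 of 45 every 6p library lay above every control library, which held for 26% of all tested genes. In bulk RNA, a larger number of cells making a transcript and more of it per cell cannot be told apart.

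**Figure D1:**
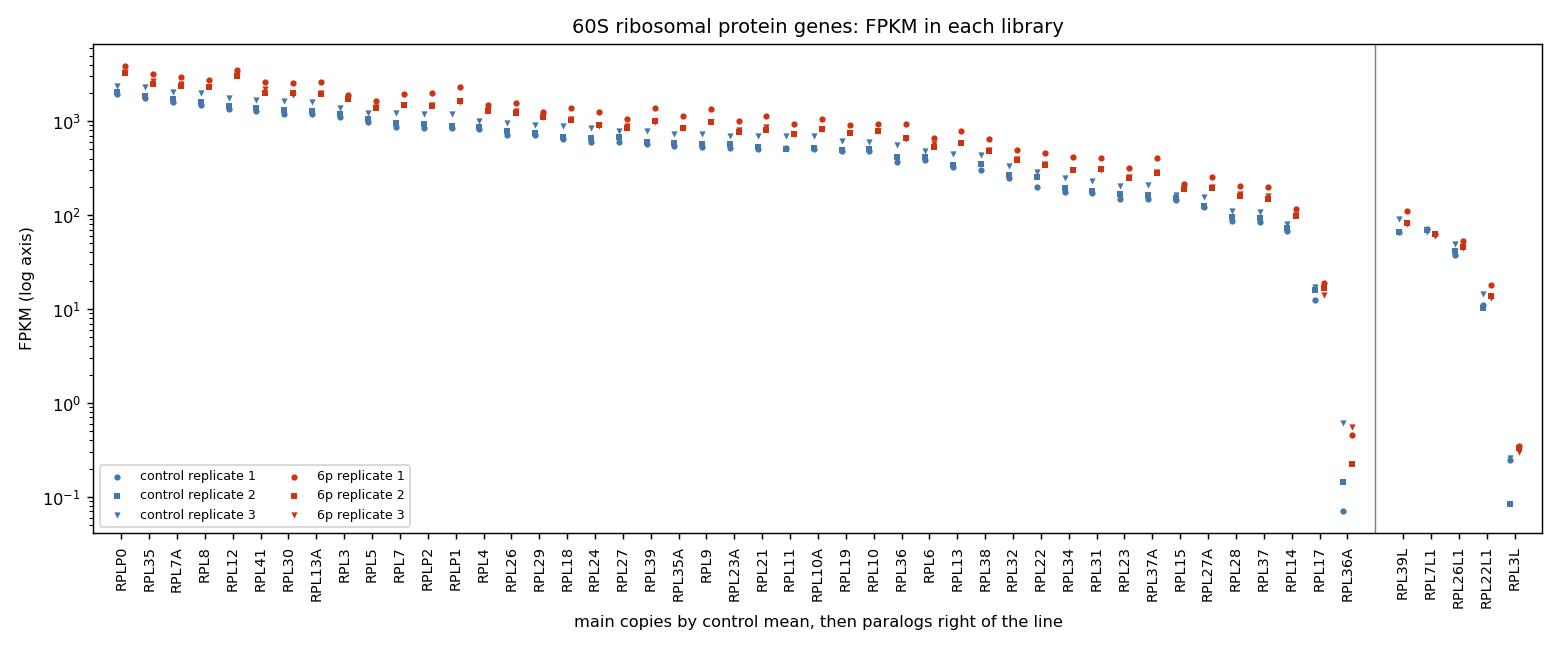
FPKM (log axis) of the 60S genes reported here in the 6 libraries, main copies ordered by control mean and paralogs right of the line. Blue marks are control and red marks 6p libraries, with a shape for each replicate. For RPL12 the controls lie between 1342 and 1744 and the 6p libraries between 3039.6 and 3505, while the marks of RPL17 overlap.

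Levels of the members differed far more between genes than between groups. RPLP0 had the highest control mean, 2128 ± 223 FPKM, and 41 main copies were at 100 FPKM or more in control. Over all 6 libraries 30 main copies were among the 100 genes with the highest mean.

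The stalk genes all rose and had the largest median among the roles examined. RPLP0 forms the base of the stalk, RPLP1 and RPLP2 are the acidic proteins bound to it, and RPL12 lies at its foot. RPL12 read 1342, 1457 and 1744 FPKM in control replicates 1 to 3 and 3505, 3039.6 and 3072 FPKM in 6p replicates 1 to 3. All 6p libraries stood clear of the controls, and 6p replicate 1 was the highest as in most members. The log2 fold change was 1.09 ± 0.14 (SE, as throughout; adjusted p 0.000639 in limma, as for all adjusted p that follow), the largest of all members. RPLP1 read 848, 892 and 1206 FPKM in control and 2305, 1629 and 1604 FPKM in 6p, and rose by 0.91 ± 0.19 (adjusted p 0.00615 in limma). Its control level was below those of RPL12 and RPLP0. RPLP0 read 1943, 2065 and 2376 FPKM in control and 3848, 3239 and 3377 FPKM in 6p, with a log2 fold change of 0.71 ± 0.13 (adjusted p 0.00380 in limma). RPLP2 read 841, 925 and 1201 FPKM in control and 1981, 1437 and 1471 FPKM in 6p, with a log2 fold change of 0.72 ± 0.18 (adjusted p 0.0123 in limma). In each of these genes control replicate 3 was the highest control and still lay below the lowest 6p library. The median of the 4 was 0.81, and 0.55 with the length trend removed; 4 of 4 rose under both, beside 21.3% and 25.5% of all tested genes.

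RPL5 and RPL11, the proteins of the 5S ribonucleoprotein particle, were among the members that rose least. RPL5 read 977, 1057 and 1232 FPKM in control and 1643, 1383 and 1419 FPKM in 6p, with a log2 fold change of 0.45 ± 0.13 (adjusted p 0.0233 in limma). RPL11 read 519, 504 and 699.6 FPKM in control and 939, 729 and 737 FPKM in 6p, with a log2 fold change of 0.49 ± 0.16 (adjusted p 0.0377 in limma). The groups of both genes stood apart, though for RPL11 control replicate 3 came close to 6p replicate 2. With the length trend removed the log2 fold changes were 0.17 for RPL5 and 0.21 for RPL11, both still called higher. Both lost the call without control replicate 1 or 2 and without 6p replicate 1 or 3, and RPL11 also without 6p replicate 2.

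Around the exit tunnel, 8 of 9 genes rose (21.3% of all tested genes), with a median log2 fold change of 0.61. RPL39, a very short protein in the tunnel wall, read 578, 596 and 777 FPKM in control and 1370.5, 1004 and 984 FPKM in 6p. RPL31, at the tunnel's outer rim, read 171, 179.8 and 231 FPKM in control and 407, 306 and 300.1 FPKM in 6p. RPL26, another protein near the exit, read 718, 784 and 958 FPKM in control and 1571, 1219 and 1278 FPKM in 6p. In all 3 genes the 6p libraries lay above the controls, with log2 fold changes of 0.78 for RPL39, 0.79 for RPL31 and 0.73 for RPL26. RPL4, whose long loop lines the constriction of the tunnel, rose from 899 ± 88.1 to 1373 ± 114 FPKM, and RPL19 from 528 ± 71.1 to 796 ± 94.8 FPKM. RPL22, an RNA-binding protein mutated in some cancers, rose from 247 ± 44.6 to 382 ± 63.0 FPKM. The groups of RPL4, RPL19 and RPL22 did not overlap. RPL23A, the docking site of the signal recognition particle near the exit, rose from 597 ± 94.9 to 861 ± 122 FPKM. RPL35, at the exit rim, rose from 1978 ± 317 to 2767 ± 358 FPKM; its log2 fold change of 0.49 ± 0.16 (adjusted p 0.0340 in limma) was below the median of the family.

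RPL17 was the exception among tunnel genes and among all tested main copies. It read 12.5, 15.9 and 17.3 FPKM in control and 19.1, 16.6 and 14.1 FPKM in 6p. The groups overlapped, with 6p replicate 3 below control replicates 2 and 3, and the log2 fold change was 0.12 ± 0.14 (adjusted p 0.505 in limma). Its level was far below the other tested main copies, the next lowest being RPL14 at 73.6 ± 6.74 FPKM in control, and rested on 244 to 403 fragments a library. With the length trend removed its value was -0.15, and without control replicate 1 it was -0.0089. In GENCODE release 29 on GRCh38, RPL17 lies on chromosome 18, 49488453 to 49492523, minus strand, and 32.7% of its exon bases are shared with other genes on the same strand. These are the readthrough gene RPL17-C18orf32 and 3 small nucleolar RNAs. The sources used here do not say how shared reads were counted.

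At the subunit interface and the catalytic core, 5 of 5 genes rose (21.3% of all tested genes), with a median of 0.64. The 5 were again higher with the length trend removed (25.5% of all tested genes), with a median of 0.32. RPL3, which reaches the peptidyl transferase centre, read 1120.0, 1195 and 1373 FPKM in control and 1909, 1710.0 and 1718 FPKM in 6p. RPL10, loaded late in assembly with the help of the export adaptor NMD3, read 480.4, 503 and 602 FPKM in control and 926, 791 and 789 FPKM in 6p. Both genes kept the groups apart, with log2 fold changes of 0.54 ± 0.12 (adjusted p 0.00846 in limma) and 0.66 ± 0.12 (adjusted p 0.00372 in limma). RPL23, RPL24 and RPL41, which lie at or bridge the interface with the small subunit, rose by 0.64, 0.53 and 0.65 on the log2 scale. RPL24 had an adjusted p of 0.0410 in limma, the highest adjusted p of the 44.

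Genes in which loss of one copy is known to cause Diamond-Blackfan anemia, a failure of red cell production, all rose, 9 of 9 (21.3% of all tested genes), with a median of 0.49. Again 9 of 9 were higher with the length trend removed (25.5% of all tested genes), with a median of 0.31. RPL5, RPL11, RPL26, RPL31 and RPL35 of this list were given above. RPL15 read 146, 152 and 162 FPKM in control and 214, 189 and 189.6 FPKM in 6p, and with a log2 fold change of 0.36 ± 0.09 (adjusted p 0.0114 in limma) it rose less than any other called member. RPL27 read 603, 676 and 786 FPKM in control and 1061, 856 and 889.7 FPKM in 6p, with a log2 fold change of 0.44 ± 0.14 (adjusted p 0.0284 in limma). Neither gene overlapped between groups. RPL18 rose from 741 ± 127 to 1149.9 ± 192 FPKM, and RPL35A from 624 ± 101 to 944 ± 159 FPKM, by 0.63 and 0.60 on the log2 scale.

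Several further genes stood near the stalk genes at the top. RPL37A, a zinc-binding protein, read 148, 162 and 209 FPKM in control and 409, 279.8 and 286 FPKM in 6p, with a log2 fold change of 0.90 ± 0.18 (adjusted p 0.00491 in limma). RPL9 read 530.1, 567 and 725 FPKM in control and 1346, 986 and 979 FPKM in 6p, with a log2 fold change of 0.86 ± 0.17 (adjusted p 0.00472 in limma). RPL28 read 86.8, 94.4 and 111 FPKM in control and 206, 159 and 167 FPKM in 6p, with a log2 fold change of 0.86 ± 0.13 (adjusted p 0.00134 in limma). In these genes 6p replicate 1 stood well above the other 6p libraries, which agreed closely with each other. RPL37, another zinc-binding protein, read 85.5, 93.0 and 109 FPKM in control and 200.4, 149.9 and 161 FPKM in 6p, and rose by 0.82 ± 0.13 (adjusted p 0.00192 in limma). RPL13 read 324, 344 and 448 FPKM in control and 794, 582 and 589.9 FPKM in 6p, and rose by 0.81 ± 0.17 (adjusted p 0.00548 in limma). RPL37, RPL28 and RPL13 have long gene models, of 7573, 5391 and 4726 nt, while those of the stalk genes span 462 to 1174 nt.

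The remaining called members rose by 0.46 to 0.74 on the log2 scale. RPL36, RPL34 and RPL21 rose by 0.74, 0.71 and 0.70, with 6p means of 752 ± 163, 340.2 ± 69.6 and 936 ± 177 FPKM. RPL7, RPL13A, RPL10A and RPL27A rose by 0.69, 0.69, 0.67 and 0.66; RPL13A is also known as part of a complex that silences inflammatory messenger RNAs. RPL30, RPL32 and RPL38 rose by 0.63, 0.61 and 0.59, RPL38 being known for its part in translating Hox messenger RNAs in the mouse embryo. RPL8, RPL29, RPL7A, RPL14 and RPL6 rose by 0.56, 0.56, 0.55, 0.50 and 0.46. None of these had groups that overlapped. RPL36A did not pass the filter: it held 1, 2 and 9 fragments in the controls and 7, 3 and 7 in the 6p libraries, too few for a comparison. In GENCODE release 29 it lies on chromosome X, 101390824 to 101396154, with 8.40% of its exon bases in the readthrough gene RPL36A-HNRNPH2.

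**Figure D2:**
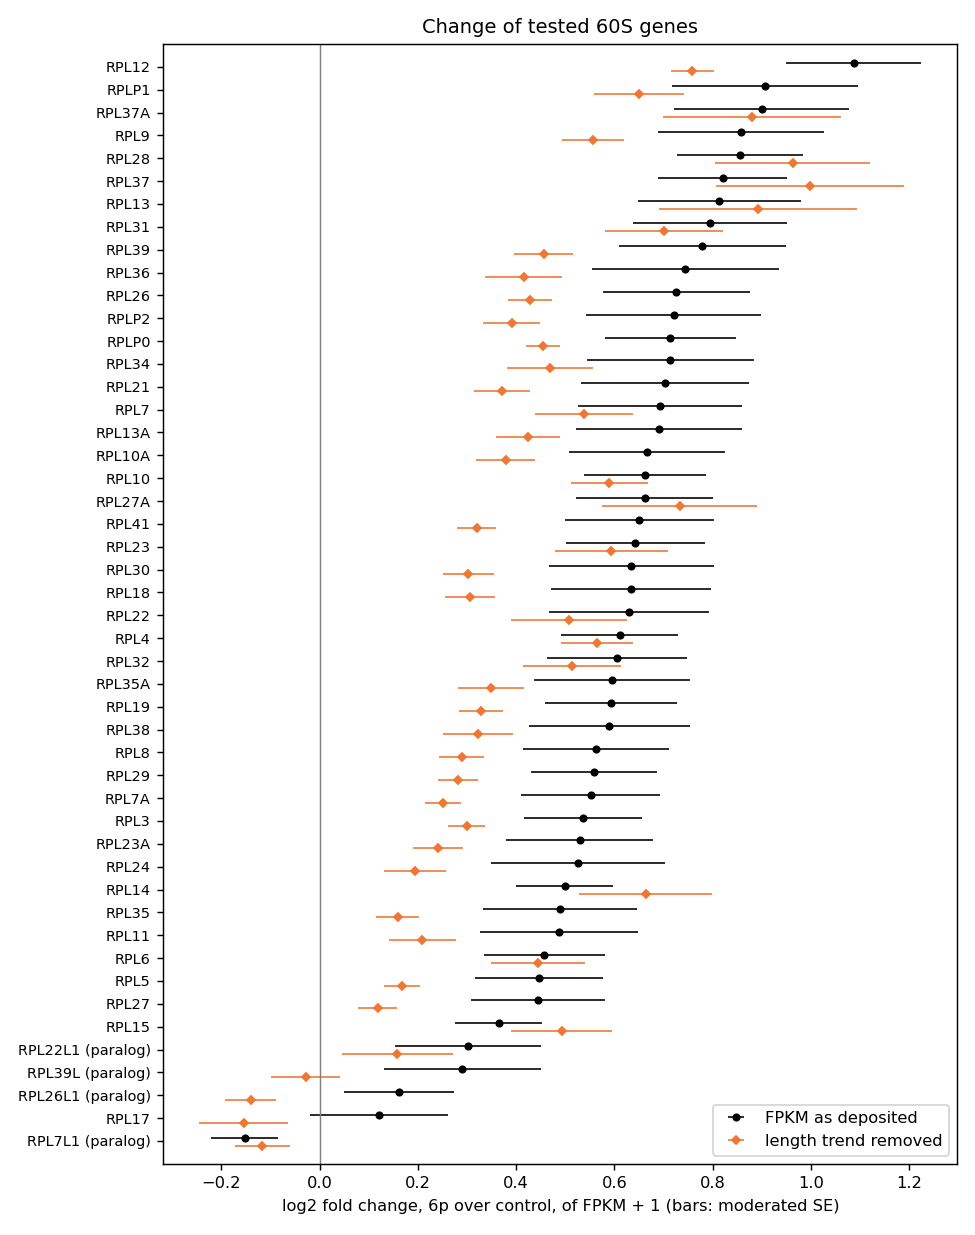
Log2 fold change of the tested 60S genes reported here, 6p over control, each with its moderated SE, from FPKM as deposited (black) and with each library's length trend removed (orange). RPL12 is at 1.09 and RPL17 at 0.12 in black; the 4 paralogs lie at the foot beside RPL17.

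Of the 4 tested paralogs, 0 were called higher and 0 lower in limma, and also 0 and 0 at an unadjusted p under 0.05. Of all tested genes 21.3% were higher and 25.1% lower, and 4 genes are too few to set 0 calls apart from these shares. RPL7L1, which takes part in early ribosome assembly, read 70.4, 69.5 and 66.3 FPKM in control and 62.8, 62.8 and 59.5 FPKM in 6p. Every 6p library lay below every control, with a log2 fold change of -0.15 ± 0.07 (adjusted p 0.0986 in limma). RPL26L1 read 37.6, 41.5 and 49.1 FPKM in control and 53.1, 45.6 and 44.6 FPKM in 6p, with a log2 fold change of 0.16 ± 0.11 (adjusted p 0.266 in limma). Its control replicate 3 lay above 6p replicates 2 and 3. RPL39L, known from testis and from some cancers, read 66.7, 66.4 and 90.6 FPKM in control and 111, 82.9 and 80.3 FPKM in 6p, with a log2 fold change of 0.29 ± 0.16 (adjusted p 0.164 in limma). RPL22L1, the copy of RPL22, read 11.1, 10.3 and 14.3 FPKM in control and 18.1, 13.7 and 13.0 FPKM in 6p, with a log2 fold change of 0.30 ± 0.15 (adjusted p 0.128 in limma). Both overlapped between groups through control replicate 3. RPL3L, known from heart and skeletal muscle, was near the detection limit with 12, 4 and 13 fragments in control and 18, 15 and 13 in 6p, and was not tested. Without control replicate 3 and 6p replicate 1, RPL26L1, RPL39L and RPL22L1 were called higher, at 0.19, 0.29 and 0.29, and RPL7L1 lower at -0.19 (30.3% and 35.6% of all tested genes were then higher and lower). Without control replicate 3 alone, RPL39L and RPL22L1 were called higher, at 0.44 and 0.43. Rescaled to TPM, RPL7L1 was called lower, where 34% of all genes were lower. With the length trend removed RPL26L1 was called lower, at -0.14 (adjusted p 0.0463 in limma), where 27.8% of all genes were lower.

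Set against its main copy in the same library, each tested paralog had a lower mean ratio in 6p. RPL39L was 11.5%, 11.1% and 11.6% of the RPL39 level in control and 8.10%, 8.26% and 8.16% in 6p. RPL26L1 was 5.23%, 5.30% and 5.12% of RPL26 in control and 3.38%, 3.74% and 3.49% in 6p. RPL7L1 was 8.03%, 7.30% and 5.42% of RPL7 in control and 3.22%, 4.26% and 3.96% in 6p. In these 3 pairs the groups did not overlap. Control replicate 3 was the control nearest to 6p for RPL26L1 and RPL7L1, but not for RPL39L. The ratios were not computed with the length trend removed. RPL22L1 was 4.87% ± 0.780 of RPL22 in control and 3.91% ± 0.202 in 6p (SD, n = 3), and there the groups overlapped. A two-sided exact permutation test gave p = 0.10 for the first 3 pairs, the smallest that 3 against 3 libraries allow, and 0.20 for RPL22L1, adjusted over 4 pairs to 0.133 and 0.20. None of the 4 ratios therefore passed 0.05, and the design could not have let one pass.

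**Figure D3:**
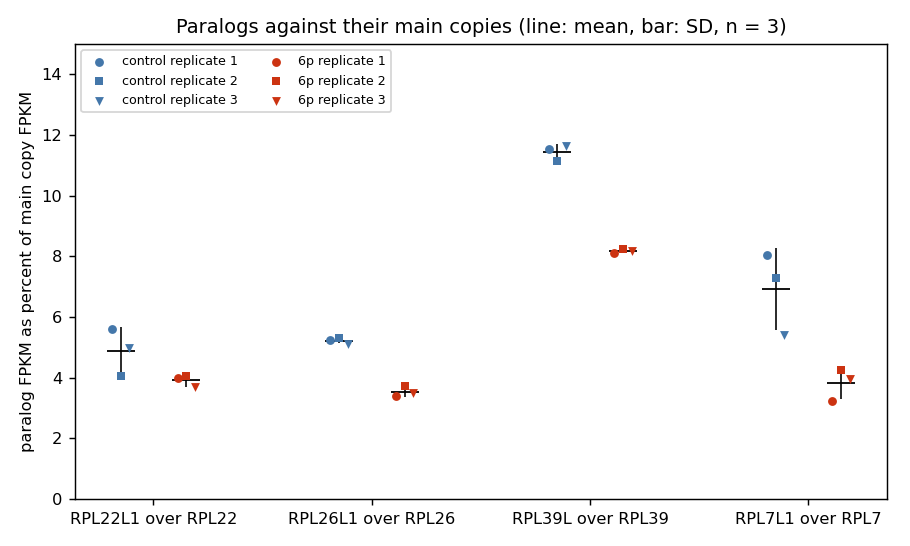
FPKM of each tested paralog as a percentage of its main copy in the same library, with the mean (horizontal line) and SD (vertical bar) of 3 libraries. RPL39L and RPL26L1 form tight, separate groups (11.4% against 8.17%, and 5.22% against 3.54%), while the groups of RPL22L1 overlap.

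RPL36AL lies outside the naming rule. It is a retrocopy that encodes nearly the same protein as RPL36A, and read 162, 178 and 211 FPKM in control and 260.4, 180.5 and 197 FPKM in 6p. Its groups overlapped and its log2 fold change was 0.20 ± 0.15 (adjusted p 0.314 in limma). Without control replicate 3 and 6p replicate 1 it was called higher, at 0.15. RPL36A itself was listed at no more than 0.616 FPKM. GENCODE release 29 names 19 pseudogenes for RPL36A, and the sources used here do not say how reads matching several copies or the readthrough gene were counted.

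Fold changes differed with gene length across the whole table. Across all tested genes the median log2 fold change was 0.25 for the shortest genes (262 to 1489 nt, 1 of 10 length groups of equal size) and -0.22 for the longest group. Of the 45 main copies, 30 were in the shortest group, where 39.7% of genes were called higher and 6.04% lower. The median of those 30 was 0.63. The 14 main copies over 2000 nt had a median of 0.65, against 0.63 for the 31 shorter ones. Over the 45, Spearman's rho between length and log2 fold change was 0.04, beside -0.37 over all tested genes. Long members also had lower levels, with a median mean of 257 FPKM against 972 FPKM for short ones. These lengths are the ones implied by the FPKM.

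With each library's length trend removed, the same 44 main copies were higher and 0 lower, beside 25.5% and 27.8% of all tested genes. The median fell from 0.63 to 0.42, and the range became -0.15 to 1.00. The reduction fell on short genes: the median was 0.32 for members up to 2000 nt and 0.63 for longer ones. RPL37, RPL28, RPL13 and RPL37A then had the largest values, at 1.00, 0.96, 0.89 and 0.88, and RPL27 and RPL35 the smallest called ones, at 0.12 and 0.16. Without control replicate 3 and 6p replicate 1, 44 were again higher and 0 lower, with a median of 0.64. Rescaled to TPM, where 13% of all genes were higher and 34% lower, 44 were higher and 0 lower. With median recentring 41 were higher, and with quantile normalization 33, with 0 lower in each. Of all 11745 tested genes, 2872 and 2824 were then higher. The count was 22 without control replicate 2 and 30 without control replicate 1. It was 38, 42 and 39 without 6p replicates 1, 2 and 3, and 44 without control replicate 3, with 0 lower in each. Whichever single library was left out, 22 main copies passed, among them RPLP0, RPLP1, RPL3, RPL4, RPL9, RPL10, RPL12, RPL13, RPL14, RPL19, RPL22, RPL23, RPL26, RPL27A, RPL28, RPL31, RPL32, RPL34, RPL37, RPL37A and RPL39. RPL27 and RPL35 lost the call without control replicate 1 or 2 and without 6p replicate 1 or 3, RPL24 without any library but control replicate 3, and RPL23A without control replicate 1 or 2 or 6p replicate 1. RPL15, RPLP2, RPL7, RPL10A, RPL13A, RPL21, RPL29 and RPL41 lost it without control replicate 2 alone. RPL6, RPL7A, RPL8, RPL18, RPL30, RPL35A, RPL36 and RPL38 lost it without control replicate 1 or 2. Control replicate 3 lay a median 40.1% of the way from the other controls to 6p over the main copies, and its part in these losses was not tested.

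**Figure D4:**
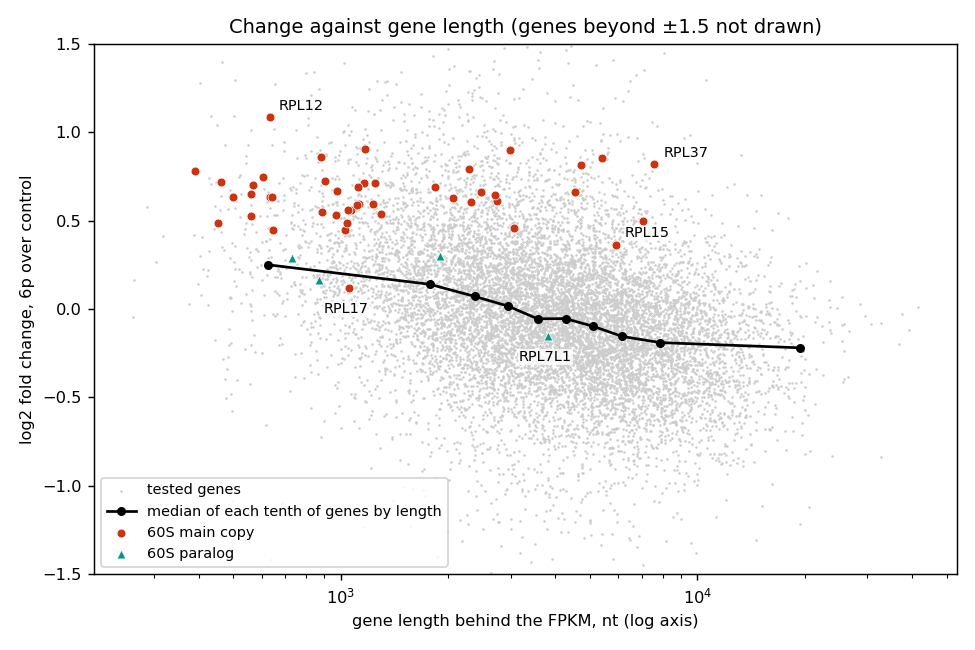
Log2 fold change against the gene length behind each FPKM (log axis) for tested genes (grey), 60S main copies (red) and paralogs (green). The black line joins the medians of 10 equal groups of genes by length, which run from 0.25 to -0.22, and the main copies lie between 0.36 and 1.09 apart from RPL17 at 0.12.

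To see which members moved more or less than the family, each library was centred on the median of its 60S main copies and the fit over all genes repeated. This centring was chosen after the data were seen, and it places about equal numbers of members on each side by construction. It also lowers the other genes, and the median over all tested genes became -0.68. The shares of all tested genes given below follow from that shift and do not measure enrichment of members. RPL12, RPLP1, RPL37A, RPL9, RPL13 and RPL39 were then higher than the family median, at 0.45, 0.27, 0.26, 0.22, 0.18 and 0.14 on the log2 scale, beside 1.46% of all tested genes called higher. RPL17, RPL15, RPL27, RPL5, RPL6, RPL11 and RPL35 were lower, at -0.52, -0.27, -0.19, -0.19, -0.18, -0.15 and -0.15, beside 66.9% of all tested genes called lower. Both 5S particle proteins and 5 of the 9 anemia genes were thus in the lower set. With the length trend also removed, all 6 of the higher and 5 of the 7 lower genes kept their calls (7.02% of all tested genes were then higher and 62.4% lower). RPL15 and RPL6 turned to 0.15 and 0.11, neither of which passed. Without the 2 libraries that stood apart, all 13 kept their calls. That fit has 2 libraries a group, and called 3.51% of all tested genes higher and 86.5% lower. RPL12, RPLP1 and RPL9 remained higher, and RPL35 and RPL5 lower, whichever single library was left out. Without control replicate 1 the counts were 3 higher and 3 lower, without control replicate 2 they were 3 and 2, and without 6p replicate 2 there were 3 lower. The paralogs RPL7L1, RPL26L1 and RPL39L were below the family median, at -0.79, -0.47 and -0.35, and RPL22L1 at -0.33 did not pass (adjusted p 0.139 in limma), though it did without control replicate 3 and 6p replicate 1. RPL7L1 kept this call whichever single library was left out. RPL26L1 lost it without control replicate 1 or 2, and RPL39L without control replicate 1 or 2 or 6p replicate 2 or 3. With the replicate block RPL26L1 and RPL39L did not pass either. With the length trend also removed RPL7L1, RPL26L1 and RPL39L kept their calls, RPL7L1 at -0.45, and RPL22L1 at -0.18 did not pass.

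Main copies with a pyrimidine run at the annotated start had a median log2 fold change of 0.70 (24 genes, 0.49 to 1.09). The 13 without one in the table had a median of 0.59, with a range of 0.12 to 0.86. With the length trend removed the medians were 0.43 and 0.44. RPL12 and RPL35, with runs of 6 and 11 bases shown above, were above and below the family median, and RPL9, counted as without, was above it.

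Most proteins of the small subunit rose as well. Of 32 proteins of the 40S subunit, 29 were higher and 1 lower, with a median of 0.67, beside 21.3% and 25.1% of all tested genes. The lower gene was RPS10, at -0.56 ± 0.11 (adjusted p 0.00500 in limma), from 9.26 ± 1.41 to 5.94 ± 0.505 FPKM. Its level was far below the median of the 40S genes, which ran from 600 to 829 FPKM over the controls. RPSA, the laminin receptor homologue, and FAU, a ubiquitin-like fusion, rose by 0.51 and 0.57. RPSA lost the call without control replicate 1 or 2, and FAU without these or 6p replicate 1 or 3. The summed FPKM of 60S genes was 1.31, 1.30 and 1.28 times that of 40S genes in the controls and 1.21, 1.27 and 1.27 times in 6p. The 6p ratios all lay below the control ratios, by a small margin for 6p replicates 2 and 3. With the length trend removed, the 40S counts were 28 higher and 1 lower, with a median of 0.45, beside 25.5% and 27.8% of all tested genes. Without control replicate 1 the count of higher 40S genes was 15, and without control replicate 2 it was 14. Among 19 translation factors and other genes known for TOP messenger RNAs, 14 were higher and 0 lower, with a median of 0.38 (16 and 0 at an unadjusted p under 0.05). With the length trend removed, 16 of these were higher and 0 lower, with a median of 0.36. EEF1A1, which delivers aminoacyl-tRNA, rose from 3603 ± 272 to 7004 ± 537 FPKM, by 0.96 ± 0.13 (adjusted p 0.000953 in limma). RACK1, a scaffold on the 40S head, and TPT1 rose by 0.64 and 0.75. EEF2, the translocase served by the stalk, was at 0.35 ± 0.16 (adjusted p 0.105 in limma), and PABPC1, the poly(A)-binding protein, at 0.24 ± 0.10 (adjusted p 0.0892 in limma); neither passed. Both were called higher with the length trend removed, at 0.35 and 0.20 (adjusted p 0.0397 and 0.00405 in limma), and without control replicate 3 and 6p replicate 1, at 0.51 and 0.27. EEF2 was also called without 6p replicate 1 alone, at 0.53, and PABPC1 with limma voom and with eBayes without trend.

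Among the factors that assemble the 60S subunit, lower calls outnumbered higher ones, by more than over all tested genes. Of 52, 5 were higher and 18 lower, beside 21.3% and 25.1% of all tested genes, with a median of -0.14. With the length trend removed, 6 were higher and 24 lower, beside 25.5% and 27.8%, with a median of -0.12. Rescaled to TPM, 2 were higher and 27 lower, beside 13% and 34%. GRWD1, the chaperone of RPL3, fell from 11.3 ± 0.211 to 6.90 ± 0.654 FPKM, with a log2 fold change of -0.64 ± 0.08 (adjusted p 0.000716 in limma). HEATR3, which brings RPL5 into the nucleus, was at -0.19 ± 0.09 (adjusted p 0.109 in limma), EIF6, which keeps the free subunit from joining, at 0.04 ± 0.13 (adjusted p 0.815 in limma), and SBDS, which helps release EIF6, at 0.08 ± 0.08 (adjusted p 0.465 in limma); these 3 did not pass. EIF6 was called lower with the length trend removed, at -0.21 (adjusted p 0.00749 in limma). HEATR3 was called lower without control replicate 3 and 6p replicate 1, at -0.19, and when rescaled to TPM, at -0.37. The 5 higher factors were RSL24D1, NOP53, NSA2, RSL1D1 and NMD3, at 1.02, 0.83, 0.27, 0.23 and 0.19. RSL24D1, a relative of RPL24 that holds its place in the precursor, rose from 76.4 ± 7.08 to 157 ± 23.6 FPKM, and RPL24 itself by 0.53. Without control replicate 3 and 6p replicate 1 the counts were 8 higher and 25 lower, beside 30.3% and 35.6% of all tested genes. Of the 5 higher factors, RSL24D1 and NOP53 passed whichever single library was left out. NSA2 and RSL1D1 lost the call without any 1 library but control replicate 3, and NMD3 without any 1 library. Leaving out any 1 library other than control replicate 3 left 2 higher, and leaving out control replicate 2 left 9 lower.

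Among 19 regulators of TOP messenger RNAs and ribosomal protein genes, 3 were higher and 7 lower, beside 21.3% and 25.1% of all tested genes, with a median of -0.25. The counts were again 3 and 7 with the length trend removed, beside 25.5% and 27.8%, with a median of -0.10. Without control replicate 1 or 2 there were 4 lower. EIF4EBP1, the mTOR target that represses cap-dependent translation, rose from 153 ± 13.2 to 355 ± 36.6 FPKM, with a log2 fold change of 1.21 ± 0.11 (adjusted p 0.000132 in limma). MLST8, a subunit of the mTOR complexes, and RPS6KB2, a kinase of RPS6, also rose, by 0.43 and 0.29. RPS6KB2 lost the call with the length trend removed, at 0.14 (adjusted p 0.0979 in limma), with TPM, and without control replicate 1 or 2 or 6p replicate 1 or 3. MTOR fell from 19.4 ± 3.74 to 12.6 ± 3.53 FPKM, with a log2 fold change of -0.60 ± 0.21 (adjusted p 0.0440 in limma). It lost the call without control replicate 1 or 2 or 6p replicate 1 or 3 and with no filter, and its value ran from -0.75 to -0.37 over single libraries left out. LARP1, at -0.31 ± 0.15 (adjusted p 0.109 in limma), and MYC, at 0.09 ± 0.08 (adjusted p 0.386 in limma), did not pass. Without control replicate 3 and 6p replicate 1, LARP1 was called lower at -0.29 and MYC higher at 0.14. LARP1 was also called without control replicate 3 alone, at -0.43, and MYC with the length trend removed, at 0.16 (adjusted p 0.0348 in limma). MDM2, the ligase bound by RPL5 and RPL11, read 15.3, 13.9 and 13.7 FPKM in control and 10.6, 10.7 and 11.0 FPKM in 6p. Its groups did not overlap and it fell by 0.38 on the log2 scale (adjusted p 0.00448 in limma). MTOR, LARP1 and MDM2 have gene models of 9155, 8095 and 7537 nt, and with the length trend removed they were at -0.39, -0.12 and -0.20.

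**Figure D5:**
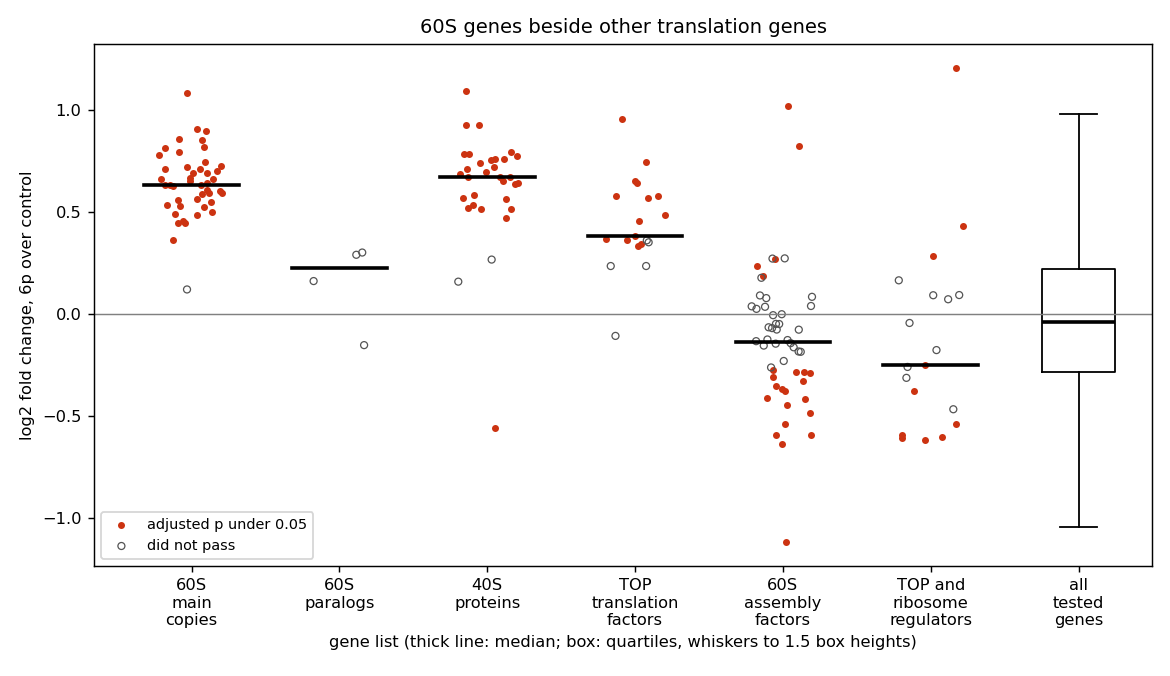
Log2 fold change of each tested gene, 6p over control, in the 60S main copies, 60S paralogs and 4 lists of related genes, with filled marks for adjusted p under 0.05 and a thick line at each median. The box at the right gives the quartiles of all tested genes; 60S and 40S proteins have medians of 0.63 and 0.67, and 60S assembly factors of -0.14.

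Ribosomal protein genes have many processed pseudogenes whose reads can be assigned to the parent gene or lost. GENCODE release 29 names 91 for RPL23A, 66 for RPL21, 61 for RPL7 and 50 for RPL12, and 0 for RPL28, RPL22L1, RPL26L1 and RPL39L. RPL28, with no named pseudogene, and RPL12, with 50, both stood in the upper part of the family. RPL22L1, RPL26L1 and RPL39L, also with none, were not called higher or lower in the main comparison. Whether pseudogene reads had a part in these values was not tested. The sources used here do not say how reads matching several copies were treated, so levels of members with many copies are uncertain. RPL12 (NCBI gene 6136) lies on chromosome 9, 127447674 to 127451405, minus strand, RPLP1 (6176) on chromosome 15, 69452784 to 69456194, plus strand, and RPL7L1 (285855) on chromosome 6, 42879618 to 42889925, plus strand. Of the exon bases of RPL13A, 17.3% lie in small nucleolar RNA genes or other overlapping genes, and of those of RPL7A, 12.7%. For RPL36 and RPL26 the shares were 17.6% and 14.3%, each with 1 overlapping gene.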

How the data were processed

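The 6 libraries, 3 control and 3 6p, were made from TRIzol-extracted RNA with a stranded TruSeq mRNA kit, per the labels' protocols. For 16070 genes the authors deposited FPKM, fragments scaled by gene length and library total. Trimmomatic, HISAT2, HTSeq, Cufflinks and the build GRCh38 are named per the submitters' processing notes. The sources used here give neither their roles and versions nor the annotation release or the treatment of reads with several matches. The table held 0 unused per-sample columns.

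Fragment counts, library totals and gene lengths were recovered from the FPKM steps (tolerance 0.001 for totals and 0.0001 for fragments; 100% of values of tested genes came out whole) with Python 3.11.15, numpy 2.4.6, pandas 2.3.3 and scipy 1.17.1. Totals ran from 16775655 to 19957335, so 1 fragment in a 1 kb gene is worth 0.0501 to 0.0596 FPKM. Every pair of replicates differed by more than sampling noise (chi-square per degree of freedom at least 2.06).

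The 11745 genes averaging 0.5 FPKM or more were tested two-sided with limma 3.58.1 in R 4.3.3 (eBayes, trend and robust on) on log2(FPKM + 1), Benjamini-Hochberg adjusted over all of them, threshold 0.05. On that scale the changes of low genes are understated. The length trend was removed as each library's loess curve (span 0.5) of log2 values on log2 length. The main fit was tested on simulated data without a length trend or libraries standing apart, so its behaviour under these was not tested. Same-numbered samples deviated together in 1 of 3 cases (correlations -0.57, 0.33 and -0.42). The strongest correlation, 0.63, was between control replicate 3 and 6p replicate 1, the libraries that stood apart. Whether equal numbers mark paired samples therefore cannot be told from these values.

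Named genes are all those matched by the naming rule, 19 genes of translation fixed by name, and members called against their list's majority where at most 5 were; a few items are not reported here, though counts and medians include them. The lists of 40S proteins, TOP translation factors, 60S assembly factors and regulators, the role lists and the members were chosen with earlier results of these data known. Start sequences are from RefSeq (GRCh38.p14) and gene coordinates from GENCODE release 29 on GRCh38.

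The settings changed in turn were the pseudocount (0.1 or 0.01), the filter (none, 1 or 5 FPKM), the scaling (median, upper quartile, quantile or TPM), eBayes without trend, limma voom on recovered fragments, the length trend, a replicate block, leaving out each library in turn and leaving out control replicate 3 and 6p replicate 1. Centring on the 60S median was added after the data were seen.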

Additional observations from a re-analysis of the deposited data

How the results depend on the processing

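The median log2 fold change of the 45 tested 60S main copies was above 0 under each of 21 alternatives, with 0 members called lower in each. It ran from 0.54 to 0.77 when single libraries were left out and was 0.29 with quantile normalization. Member-by-setting values were counted together for fold changes and for values against the family median, a centring added after the data were seen. Of these 1075 values, 936 kept direction and call, 131 lost the call, 0 gained one and 8 changed sign. With single libraries left out, counts ranged from 1724 to 2706 higher and 1793 to 3378 lower over all genes, 22 to 44 higher for 60S main copies, 14 to 30 for 40S proteins and 10 to 15 for TOP translation factors; from 2 to 7 higher and 9 to 19 lower for assembly factors, and 2 to 3 higher and 4 to 10 lower for regulators. Against the family median they ranged from 3 to 6 higher and 2 to 8 lower. The replicate block used numbers that are not known to pair the samples. It gave 1920 lower over all genes, 22 higher 60S main copies, 14 higher 40S proteins and 9 higher TOP factors. It also gave 2 higher and 10 lower assembly factors, and 4 lower regulators (3 with the length trend removed). Against the family median the block left 2 higher and 0 lower. Rescaling to TPM, which moved the median of all genes to -0.21, gave 1526 higher over all genes (13%, with 34% lower) and 44 higher 60S main copies with a median of 0.46. It also gave 1 lower TOP factor, 2 higher assembly factors and 11 lower regulators. Quantile normalization gave 33 higher 60S main copies, 2 lower 40S proteins and 2 lower TOP factors. Leaving out control replicate 3 and 6p replicate 1 gave 8 higher assembly factors, 5 higher and 11 lower regulators, and 14 higher and 12 lower members against the family median, where removal of the length trend gave 16 higher. Some single values changed sign. With quantile normalization RPL35 was at -0.10, RPL5 -0.066, EEF2 -0.16, PABPC1 -0.18 and EIF6 -0.16. With TPM, RPL17 was at -0.050, RPL26L1 -0.014, EIF6 -0.14, MYC -0.084 and SBDS -0.10. With the length trend removed, with or without the block, RPL17 was at -0.15, RPL26L1 -0.14, RPL39L -0.029, RPL36AL -0.13, EIF6 -0.21 and SBDS -0.11. Against the family median RPL15 and RPL6 were then at 0.15 and 0.11. RPL17 went from -0.0089 (without control replicate 1) to 0.23 and EIF6 from -0.035 to 0.16 over single libraries left out. The cause of these shifts was not tested. Calls lost when a library was left out also rest on fewer samples. RPL36A and RPL3L had too few fragments for a small change to be detectable. RPL17 had more, but a small change could also be missed given the spread between its libraries.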
